A study of Emiliania huxleyi CCMP1516 with 36 samples.

Results

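The genes described here are those of Emiliania huxleyi, a unicellular calcifying alga, that are named for endosomal and vacuolar protein sorting. The rule for choosing them reads gene names and no measured values: every gene whose identifier begins with VPS (other than VPS34), CHMP, IST1 or SNX, whatever the case of its letters. The rule found 27 genes among the 37212 in the deposited table, all with VPS, IST1 or SNX1 names, and all 27 had enough counts to be tested among 26494 genes. By the yeast and animal proteins of the same names they are 7 subunits or partners of ESCRT-III, the ATPase VPS4, 4 VPS31 genes, the 3 core retromer subunits, the sorting nexin SNX1, 7 genes of the HOPS and CORVET tethers, 3 of the GARP tether and Vps45. None of them is named for an ESCRT-I or ESCRT-II subunit.

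Messenger RNA was sequenced from 36 libraries of axenic 2 L batch cultures of strain CCMP2090, in 9 groups of 4 biological replicates. HHQ (2-heptyl-4-quinolone), an alkylquinolone signal molecule made by bacteria, was given at 1, 10 or 100 ng/ml in DMSO at a final 0.002%, and cultures were sampled after 24 and 72 h. Vehicle cultures received 0.002% DMSO alone and were sampled at the same times. Parent cultures, which were used for inoculation, were sampled at time 0 and received nothing. The labels' organism field names strain CCMP1516, and what any sequence difference between the strains does to the counts was not tested.

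Membrane proteins that are to be degraded or recycled are sorted on endosomes. ESCRT-III proteins assemble into filaments that pinch vesicles, and the proteins they carry, into the endosome's interior, and VPS4 takes the filaments apart. Retromer, with sorting nexins, does the opposite work of retrieving proteins from endosomes to the Golgi or the cell surface. HOPS and CORVET hold endosomes and lysosomes or vacuoles together before they fuse, GARP does so for vesicles that return to the Golgi, and Sec1/Munc18 (SM) proteins such as Vps45 work with the SNARE proteins that carry out fusion. In bulk cultures of this kind, a change in the number of cells in a given state cannot be told apart from a change in the RNA of each cell.

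Library totals ran from 5679060 to 42602866 counts. The 88 antenna and photosystem genes of the alga, named as Lhcf, PSBO or PSAE, took between 2.38% and 14.8% of the counts, and 75 of them were detected in every library. Sorting genes together held 0.127% ± 0.00645 of the counts in cultures with HHQ at 100 ng/ml for 24 h, against 0.0886% ± 0.00238 in vehicle cultures (SD, n = 4 each). At 72 h the shares were 0.1195% ± 0.0145 with HHQ at 100 ng/ml and 0.0892% ± 0.00918 with vehicle. Parent cultures held 0.105% ± 0.00122. These are shares of unscaled library totals, by which the median of all genes also rose with HHQ at 100 ng/ml (values below). Counts were scaled with trimmed-mean (TMM) factors, which assume that most genes do not change, and levels below are CPM, counts set against the library total after that scaling; they are not per length, so levels of different genes are not compared. The TMM factors themselves differed with treatment, from 1.60 to 1.83 in the 24 h libraries with HHQ at 100 ng/ml against 0.670 to 1.10 with vehicle, and from 1.23 to 2.13 against 0.491 to 0.895 at 72 h. Division by library totals alone moved the log2 fold changes of all 27 genes upwards for HHQ at 100 ng/ml against vehicle, so values with library totals are given beside those with TMM.

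With TMM scaling and HHQ at 100 ng/ml, the retromer genes, Vps45, VPS46A, VPS24 and VPS54 were higher than with vehicle at both times. VPS60, IST1 and VPS31A were lower at both times, but neither call of IST1 was kept with library totals alone. The groups overlapped for VPS29 at 24 h and for VPS24 and VPS54 at 72 h. A gene was called changed where its p in edgeR's quasi-likelihood test, adjusted over all 26494 genes, was under 0.05. At 24 h 8 sorting genes rose and 4 fell, 12 of 27 or 44.4%, beside 41.1% of all genes tested (21.6% higher and 19.5% lower). At 72 h 8 rose and 6 fell, 14 of 27 or 51.9%, beside 46.2% of all genes (22.6% higher and 23.6% lower). The share of sorting genes that changed was thus near the background at both times. The median log2 fold change of the 27 genes was 0.25 at 24 h and 0.27 at 72 h, against 0.07 and 0.04 over all genes tested. Division by library totals alone gave 14 sorting genes higher and 2 lower at 24 h, and 18 higher and 2 lower at 72 h, where 50.4% and 60.8% of all genes were called. That scaling moved the median of all genes to 0.87 at 24 h and 1.17 at 72 h on the log2 scale. A shift towards higher values with it was therefore not particular to the sorting genes.

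**Figure D1:**
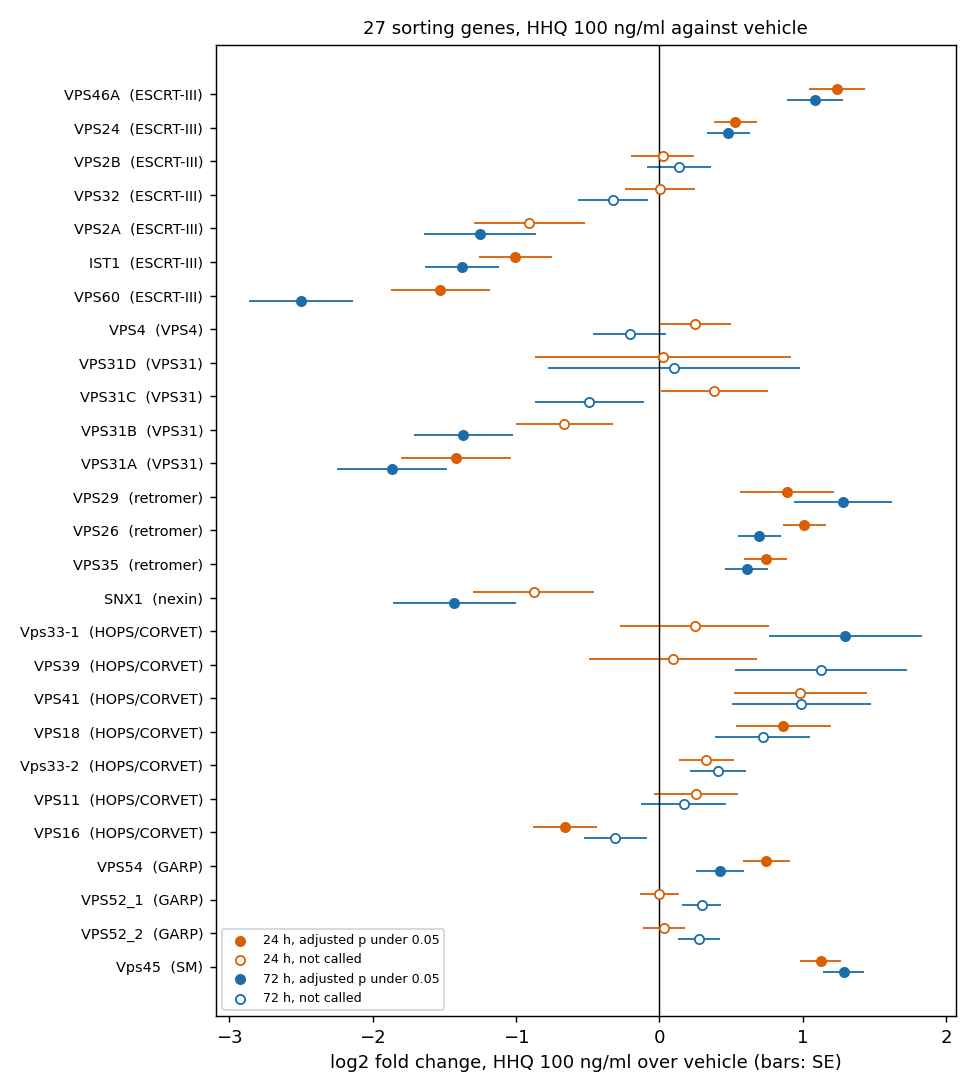
Log2 fold change of each of the 27 sorting genes, HHQ at 100 ng/ml over vehicle, at 24 h (orange) and 72 h (blue), grouped by role; bars are standard errors from the fit, and filled points have an adjusted p under 0.05. The retromer genes and Vps45 lie to the right of 0 at both times, and VPS60, VPS31A and IST1 to the left.

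The 3 retromer subunit genes were all higher with HHQ at 100 ng/ml at both times. VPS26, which together with VPS35 and VPS29 forms the retromer core, stood at 43.9, 50.2, 45.9 and 33.6 CPM in the 24 h cultures with HHQ at 100 ng/ml, against 20.6, 21.1, 25.3 and 19.2 CPM with vehicle. The groups did not overlap, and the log2 fold change was 1.01 ± 0.15 (SE), or 2.01-fold, with an adjusted p of 4.22e-06. After 72 h VPS26 had 34.6, 28.2, 31 and 36.9 CPM with HHQ at 100 ng/ml and 18.8, 25.7, 18.1 and 18.1 CPM with vehicle, again without overlap (log2 fold change 0.70 ± 0.15, adjusted p = 0.000392). The log2 fold changes of VPS26 with library totals alone were 1.81 at 24 h and 1.86 at 72 h. In replicates 1 and 2 alone at 72 h its log2 fold change of 0.54 had an adjusted p of 0.0566, and in replicates 3 and 4 alone it was 0.97 (adjusted p = 0.000528).

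VPS35, the largest scaffold of the retromer core, had 28.8, 29.9, 28.8 and 27.2 CPM with HHQ at 100 ng/ml at 24 h, against 17.5, 19.5, 16.3 and 15.4 CPM with vehicle. At 72 h its levels were 23.9, 23.7, 27.2 and 28.7 CPM with HHQ at 100 ng/ml, against 16.1, 17.3, 16.3 and 18.3 CPM with vehicle. Every library with HHQ at 100 ng/ml was above every vehicle library at its time, and the log2 fold changes were 0.74 ± 0.15 at 24 h (adjusted p = 0.000259) and 0.61 ± 0.15 at 72 h (adjusted p = 0.00153). In replicates 1 and 2 alone at 72 h the adjusted p was 0.0605. Its values with library totals alone were 1.53 and 1.74.

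VPS29, the third core subunit, is a gene with few counts, 1462 over the 36 libraries. At 24 h it had 3.11, 3.42, 3.54 and 2.06 CPM with HHQ at 100 ng/ml, against 1.05, 1.48, 2.51 and 1.43 CPM with vehicle, so the groups overlapped, and its call (log2 fold change 0.89 ± 0.33, adjusted p = 0.0302) was lost in 6 of the 8 fits that left out 1 of these libraries (adjusted p up to 0.129). At 72 h the levels of 2.86, 3.18, 3.33 and 3.16 CPM with HHQ at 100 ng/ml and 1.44, 1.45, 1.42 and 0.795 CPM with vehicle were apart (log2 fold change 1.28 ± 0.34, adjusted p = 0.00274). That call held with each of the 8 libraries left out, though not in replicates 1 and 2 alone (adjusted p = 0.0711). Library totals alone gave VPS29 log2 fold changes of 1.70 at 24 h and 2.44 at 72 h.

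SNX1, named for a sorting nexin that works with retromer on endosome tubules, went the other way. In the 72 h cultures with HHQ at 100 ng/ml it had 34.4, 41.2, 25.7 and 29.2 CPM, against 114, 149, 43.8 and 45.3 CPM with vehicle, a log2 fold change of −1.43 ± 0.43 (adjusted p = 0.00700). Vehicle replicates 1 and 2 were far above replicates 3 and 4, and the lowest vehicle library stood only just above the highest HHQ library. Within replicates 1 and 2 the means were 37.8 CPM with HHQ at 100 ng/ml and 131 CPM with vehicle, and within replicates 3 and 4 they were 27.4 CPM and 44.6 CPM (log2 fold change −0.64, adjusted p = 0.180). Without vehicle replicate 2 the adjusted p was 0.0542, and with library totals alone the log2 fold change was −0.21 (adjusted p = 0.468). At 24 h SNX1 had a log2 fold change of −0.88 that did not pass (adjusted p = 0.0951).

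Vps45 rose in every library with HHQ at 100 ng/ml and had the smallest p among the sorting genes at both times. In yeast and animals this SM protein works with syntaxins of the trans-Golgi network and early endosomes. Its levels at 24 h were 54.5, 64.1, 56.6 and 47.8 CPM with HHQ at 100 ng/ml, against 25, 26, 28.1 and 23.2 CPM with vehicle (log2 fold change 1.12 ± 0.14, 2.18-fold, adjusted p = 2.95e-07). At 72 h they were 54.7, 45.0, 49.4 and 59.2 CPM with HHQ at 100 ng/ml, against 19.1, 19.7, 24.7 and 22 CPM with vehicle (log2 fold change 1.28 ± 0.14, 2.44-fold, adjusted p = 2.10e-08). The lowest HHQ library was above the highest vehicle library at each time. Its call held in each fit that left out 1 library and within both pairs of replicates at 72 h (log2 fold changes 1.41 and 1.28). With library totals alone its log2 fold changes were 1.92 at 24 h and 2.38 at 72 h.

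Among the ESCRT-III genes VPS46A and VPS24 rose, whereas VPS60, IST1 and, at 72 h, VPS2A fell, and VPS2B and VPS32 were not called with TMM at either time. Of the 7 genes 2 rose and 2 fell at 24 h and 2 rose and 3 fell at 72 h. Over all genes 41.1% and 46.2% were called in either direction. By library totals 3 of the 7 were higher and 1 lower at 24 h, and 4 higher and 1 lower at 72 h. Over all genes 50.4% and 60.8% were called with that scaling. VPS32, the main filament subunit (Snf7 in yeast, CHMP4 in animals), had 120 to 152 CPM of the library total with HHQ at 100 ng/ml at 24 h, against 67 to 84 with vehicle, and 108 to 150 against 57.5 to 85.9 at 72 h. Those log2 fold changes were 0.85 (adjusted p = 3.76e-05) and 0.88 (adjusted p = 1.30e-05), against −0.33 at 72 h with TMM (adjusted p = 0.281). VPS2B had 0.82 at 24 h (adjusted p = 0.0587) and 1.23 at 72 h (adjusted p = 0.00526) with library totals alone. VPS46A is named for yeast Vps46 (Did2), the CHMP1 of animals, which recruits VPS4 to the filaments. It had 17, 21.5, 17.8 and 13.3 CPM with HHQ at 100 ng/ml at 24 h, against 6.97, 5.64, 8.80 and 8.02 CPM with vehicle (log2 fold change 1.24 ± 0.19, adjusted p = 8.68e-06). At 72 h it had 19.5, 16.8, 16 and 15.7 CPM with HHQ at 100 ng/ml, against 7.21, 8.30, 8.45 and 8.09 CPM with vehicle (log2 fold change 1.08 ± 0.19, adjusted p = 4.13e-05). The groups were apart at both times, and no single library decided either call. The log2 fold changes with library totals alone were 2.06 and 2.18.

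VPS24, a core filament subunit (CHMP3 in animals), rose by less. At 24 h its levels were 79.4, 92.7, 71.3 and 69.5 CPM with HHQ at 100 ng/ml and 52.1, 52.0, 58.8 and 53.8 CPM with vehicle (log2 fold change 0.53 ± 0.15, adjusted p = 0.00506). At 72 h the groups overlapped, with 72.0 to 91.9 CPM against 48.4 to 75.8 CPM, vehicle replicate 2 being the high one (log2 fold change 0.48 ± 0.15, adjusted p = 0.00859). The 72 h call was lost in replicates 1 and 2 alone (adjusted p = 0.125), and the values with library totals alone were 1.34 and 1.62.

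**Figure D2:**
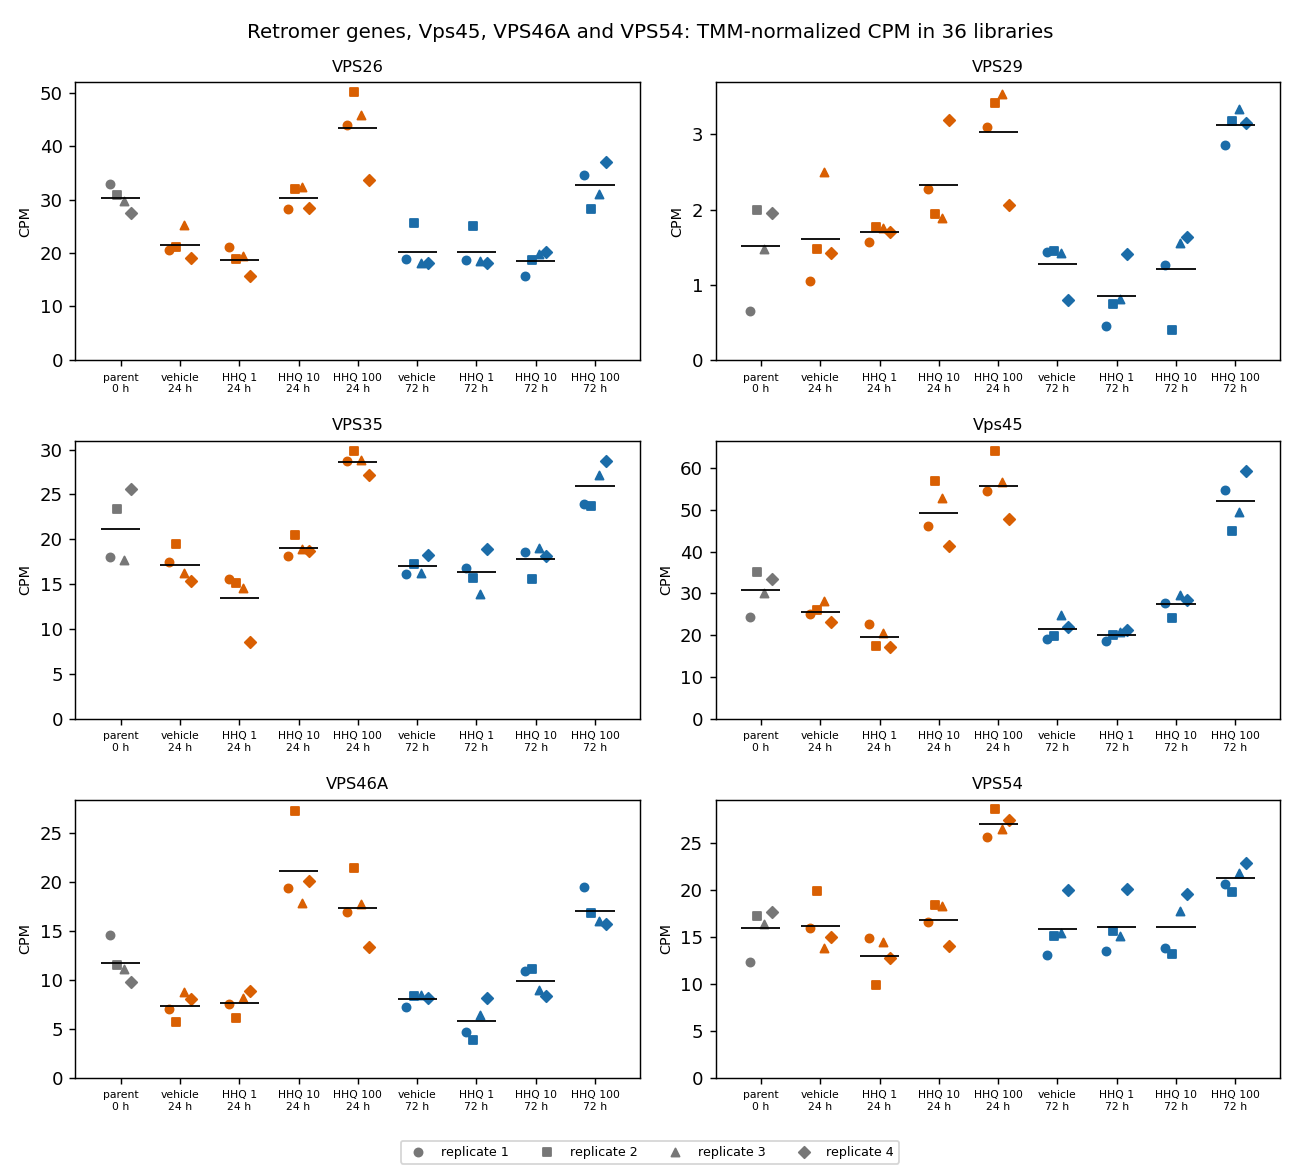
TMM-normalized CPM of VPS26, VPS29, VPS35, Vps45, VPS46A and VPS54 in each of the 36 libraries, with groups along the horizontal axis and a linear vertical axis from 0; symbols mark the replicate number and horizontal lines the mean of 4. Vps45 lies between 45.0 and 64.1 CPM in the 8 libraries with HHQ at 100 ng/ml and between 19.1 and 28.1 CPM in the 8 vehicle libraries, and VPS46A and Vps45 are also high with HHQ at 10 ng/ml at 24 h.

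VPS60 showed the largest fall among the sorting genes. Its yeast and animal namesakes (CHMP5 in animals) are ESCRT-III proteins that regulate VPS4 together with the cofactor Vta1 (LIP5). In the 24 h cultures with HHQ at 100 ng/ml it had 7.53, 8.28, 5.94 and 11.8 CPM, against 24.3, 21.4, 22.4 and 28.8 CPM with vehicle (log2 fold change −1.53 ± 0.35, adjusted p = 0.000858). At 72 h it had 7.87, 9.97, 3.06 and 7.01 CPM, against 47.2, 57.5, 30.1 and 22.2 CPM with vehicle (log2 fold change −2.50 ± 0.36, adjusted p = 1.62e-06). Both contrasts were free of overlap, and within replicates 1 and 2 and replicates 3 and 4 at 72 h the log2 fold changes were −2.51 and −2.33. VPS60 was also lower with library totals alone, with log2 fold changes of −0.71 at 24 h (adjusted p = 0.00645) and −1.39 at 72 h (adjusted p = 2.79e-06). The response at 72 h minus that at 24 h was −0.97 ± 0.48, which did not pass (adjusted p = 0.293).

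IST1, which binds VPS4 and the Did2 type of ESCRT-III protein, had 84.5, 87.7, 74.6 and 89.4 CPM with HHQ at 100 ng/ml at 24 h, against 134, 134, 160 and 248 CPM with vehicle (log2 fold change −1.01 ± 0.26, adjusted p = 0.00239). At 72 h its levels were 104, 113, 58.5 and 82.6 CPM, against 225, 339, 197 and 168 CPM with vehicle (log2 fold change −1.37 ± 0.26, adjusted p = 7.73e-05). The groups did not overlap and each call held without any 1 library, but neither held with library totals alone. As CPM of the library total, IST1 averaged 142 ± 3.64 with HHQ at 100 ng/ml and 155 ± 13.2 with vehicle at 24 h (SD, n = 4 each; log2 fold change −0.13, adjusted p = 0.345). At 72 h these means were 137 ± 8.21 and 163 ± 9.08 (log2 fold change −0.25, adjusted p = 0.0545).

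VPS2A, a filament subunit (CHMP2 in animals), had 98.5, 122, 57.7 and 79.7 CPM with HHQ at 100 ng/ml at 72 h, against 239, 365, 124 and 126 CPM with vehicle (log2 fold change −1.25 ± 0.39, adjusted p = 0.00940). The groups did not overlap, though the highest HHQ library came within a few CPM of the lowest vehicle library. Without vehicle replicate 2 the adjusted p was 0.0799, and with library totals alone the log2 fold change was −0.08 (adjusted p = 0.746). Its similarly named copy VPS2B had a log2 fold change of 0.14 ± 0.22 at 72 h (adjusted p = 0.642), and the levels of the pair had a Pearson correlation of −0.31 over the 36 libraries.

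VPS31A and VPS31B fell, VPS31A at both times and VPS31B at 72 h. In yeast VPS31 is another name of Bro1, a relative of animal ALIX that binds ESCRT-III, and what the alga's genes of this name do is not given in the sources used here. VPS31A had 54.9, 52.1, 50.4 and 70.7 CPM with HHQ at 100 ng/ml at 24 h, against 120, 119, 109 and 262 CPM with vehicle (log2 fold change −1.42 ± 0.38, adjusted p = 0.00371). At 72 h it had 80.7, 123, 43.3 and 52.9 CPM, against 339, 388, 181 and 181 CPM with vehicle (log2 fold change −1.86 ± 0.39, adjusted p = 0.000245). The groups were apart at both times, and with library totals alone VPS31A was still lower, with log2 fold changes of −0.51 at 24 h (adjusted p = 0.0478) and −0.77 at 72 h (adjusted p = 0.00291).

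VPS31B at 72 h had 44.0, 45.6, 29.2 and 32.5 CPM with HHQ at 100 ng/ml and 116, 150, 65.0 and 59.6 CPM with vehicle (log2 fold change −1.37 ± 0.34, adjusted p = 0.00176). The groups did not overlap at 72 h. With library totals alone its log2 fold change was −0.20 (adjusted p = 0.367). VPS31A and VPS31B had a Pearson correlation of 0.93 and a Spearman correlation of 0.95 over the 36 libraries, and their deposited values were fractional in all 36 libraries, as were those of other sorting genes such as IST1. Whether reads were divided between the copies was not tested. VPS31C and VPS31D, with 1606 and 1319 counts in all, were not called (log2 fold changes −0.49 ± 0.38 and 0.10 ± 0.88 at 72 h, and 0.64 and 1.25 with library totals alone, also not called).

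**Figure D3:**
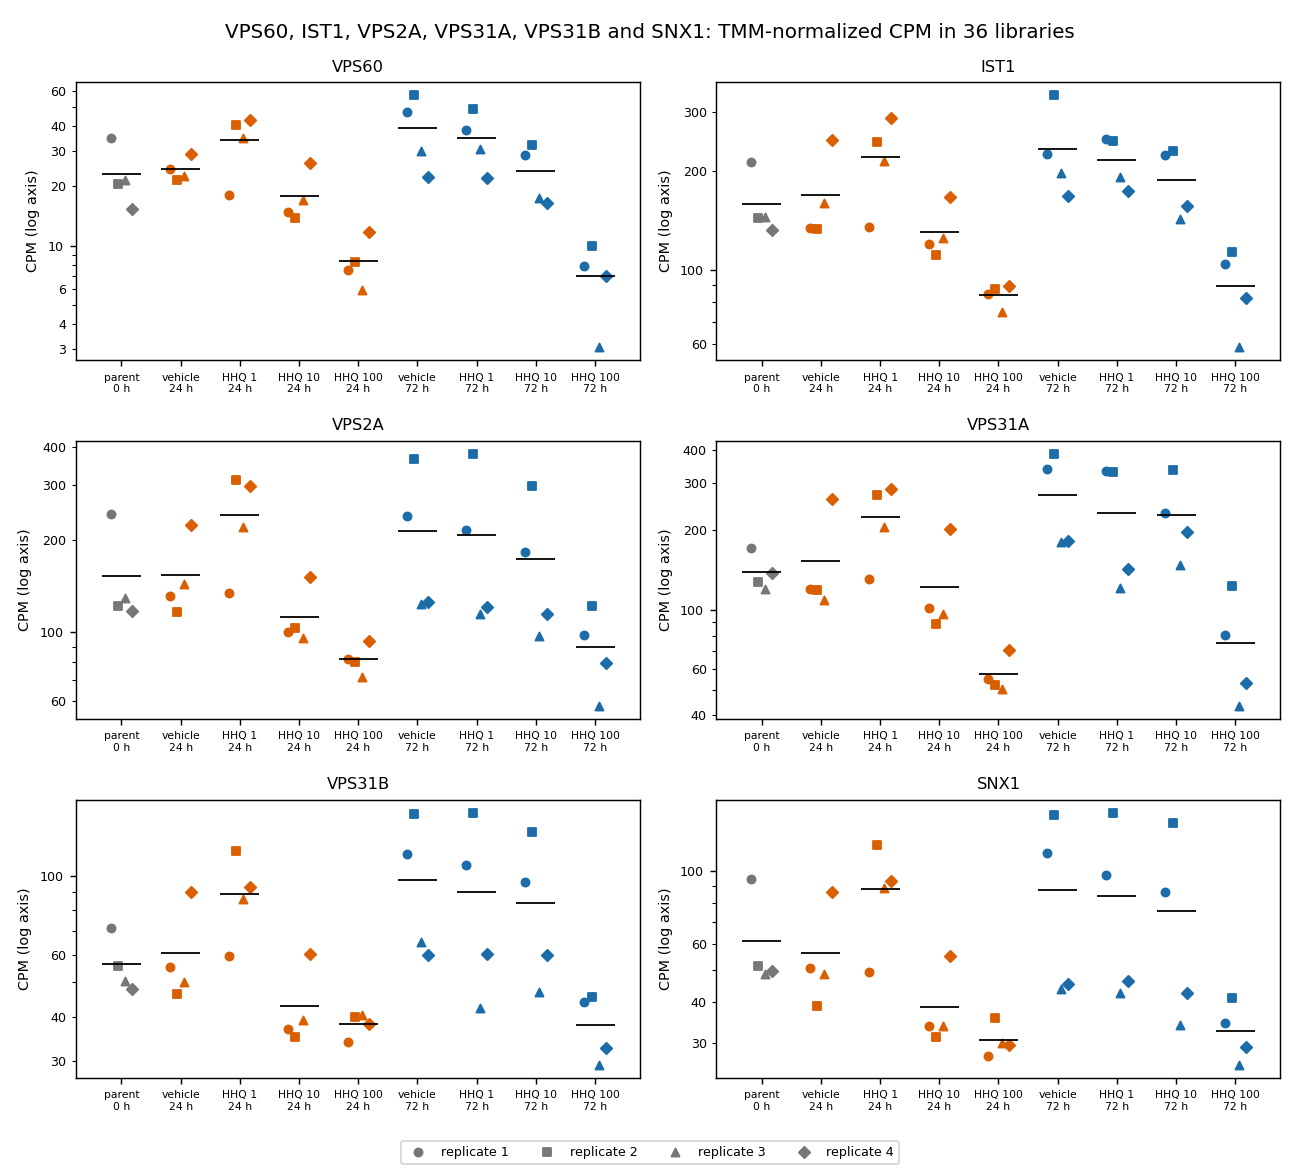
TMM-normalized CPM of VPS60, IST1, VPS2A, VPS31A, VPS31B and SNX1 in each of the 36 libraries, on log vertical axes, with groups along the horizontal axis; symbols mark the replicate number and horizontal lines the mean of 4. In each panel the 72 h libraries with HHQ at 100 ng/ml lie below the vehicle libraries of 72 h, and replicate 2 is the highest of 4 in the vehicle, 10 ng/ml and 100 ng/ml groups of 72 h.

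The 6 genes called lower at 72 h varied together among replicates, and so did genes that were not called. After the group means were subtracted, their log2 CPM values had a median Pearson correlation of 0.88 over 15 gene pairs and 36 libraries (0.78 to 0.97), against 0.17 over the 28 pairs of the 8 genes called higher and 0.04 over all 351 pairs of sorting genes. All 6 were highest in replicate 1 of the parent cultures, in replicate 4 of the vehicle and 10 ng/ml groups at 24 h, and in replicate 2 of the vehicle, 10 ng/ml and 100 ng/ml groups at 72 h. Their levels ran against the log2 TMM factor of the library in the same centred values, with correlations of −0.88 to −0.96. These levels are themselves divided by that factor, so part of this correlation is built in. By library totals the correlations of the 6 genes with the factor ran from −0.25 (IST1) to −0.77 (VPS2A). VPS32, which was not called with TMM, had correlations of 0.70 to 0.89 with the 6 genes and of −0.86 with the TMM factor. That last value was 0.17 by library totals. Per library total, without those factors, the median correlation of the 15 pairs was 0.45 (−0.19 to 0.89). These are descriptions of 36 libraries that share 1 set of scaling factors, and the part of the scaling in the falls of IST1, SNX1, VPS2A and VPS31B was not tested beyond the values with library totals.

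**Figure D4:**
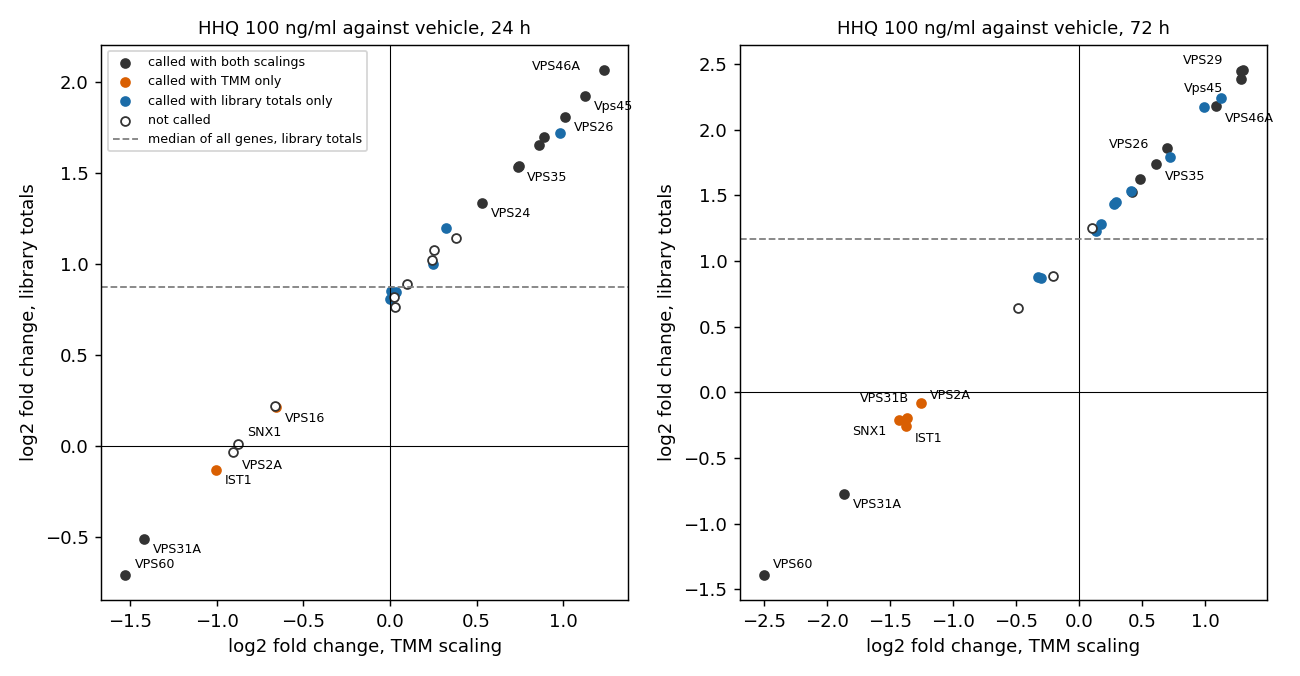
Log2 fold change of the 27 sorting genes with library totals alone (vertical axis) against that with TMM scaling (horizontal axis), for HHQ at 100 ng/ml over vehicle at 24 h (left) and 72 h (right); colours show with which scaling a gene was called, and the dashed line is the median of all genes with library totals. VPS60 and VPS31A are called lower with both scalings at both times, while IST1 at both times and SNX1, VPS2A and VPS31B at 72 h are called lower with TMM only.

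The calls among the tether genes depended on the scaling. Of the 7 HOPS and CORVET genes 1 rose and 1 fell at 24 h and 1 rose at 72 h, beside the 41.1% and 46.2% of all genes called. By library totals 3 of the 7 were higher at 24 h and all 7 at 72 h, and none was lower. Over all genes 50.4% and 60.8% were then called in either direction, and the median of all genes also rose with that scaling. VPS18, a shared core subunit of both tethers, was higher at 24 h with overlapping groups, 5.11 to 7.83 CPM with HHQ at 100 ng/ml against 2.24 to 5.59 CPM with vehicle (log2 fold change 0.86 ± 0.33, adjusted p = 0.0374), and its call was lost in 6 of 8 fits without 1 library. VPS16, the partner of the SM subunit in the same core, had 1.60, 2.03, 2.31 and 1.31 CPM at 24 h with HHQ at 100 ng/ml, against 2.38, 2.69, 2.35 and 4.08 CPM with vehicle. This was called (log2 fold change −0.66 ± 0.22, adjusted p = 0.0188), though the nearest libraries of the groups stood at 2.31 and 2.35 CPM, the call was lost without vehicle replicate 4 (log2 fold change −0.45, adjusted p = 0.123), and the sign turned with library totals alone (0.21, adjusted p = 0.612). Vps33-1, 1 of a pair of genes named for that SM subunit, had 4.21, 3.49, 6.45 and 4.22 CPM at 72 h with HHQ at 100 ng/ml and 1.25, 1.84, 2.24 and 2.17 CPM with vehicle (log2 fold change 1.30 ± 0.53, adjusted p = 0.0466). The libraries were apart, but the call was lost in 7 of the 8 fits that left out 1 of them (adjusted p up to 0.130). VPS11, Vps33-2 and the HOPS-specific VPS39 and VPS41 were not called against vehicle with TMM. VPS39 and VPS41 had only 1082 and 961 counts in all, with log2 fold changes of 1.13 ± 0.60 and 0.99 ± 0.49 at 72 h, and of 2.24 and 2.17 with library totals alone. Vps33-2 had 6.31 to 9.96 CPM of the library total with HHQ at 100 ng/ml at 24 h, against 3.02 to 3.55 with vehicle, and 6.64 to 12.8 against 1.97 to 4.2 at 72 h (log2 fold changes 1.20 and 1.53 with library totals, against 0.41 at 72 h with TMM). The corresponding 72 h values with library totals alone were 1.28 for VPS11, 1.79 for VPS18, 0.87 for VPS16 and 2.45 for Vps33-1.

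Of the 3 GARP genes VPS54 rose. It had 25.6, 28.7, 26.5 and 27.5 CPM with HHQ at 100 ng/ml at 24 h, against 15.9, 19.9, 13.8 and 15 CPM with vehicle, with no overlap (log2 fold change 0.75 ± 0.16, adjusted p = 0.000643). At 72 h the ranges of 19.8 to 22.8 CPM and 13 to 20.02 CPM overlapped slightly (log2 fold change 0.42 ± 0.16, adjusted p = 0.0360), and that call was lost in 5 of the 8 fits without 1 library. VPS54 by library totals had log2 fold changes of 1.54 and 1.52. VPS52_1 and VPS52_2, whose levels had a Pearson correlation of 0.86 over the 36 libraries and whose deposited values were fractional throughout, were not called with TMM, with log2 fold changes of 0.30 ± 0.13 and 0.27 ± 0.15 at 72 h (adjusted p = 0.0710 and 0.127). As CPM of the library total, VPS52_1 had 64 to 118 with HHQ at 100 ng/ml at 72 h, against 28.5 to 41.8 with vehicle, and VPS52_2 had 21.5 to 38.4 against 9.56 to 12.4. Both were called with library totals alone at both times (log2 fold changes 0.81 and 0.84 at 24 h, 1.45 and 1.43 at 72 h). VPS4, the ATPase that takes ESCRT-III apart, had log2 fold changes of 0.25 ± 0.25 at 24 h and −0.21 ± 0.25 at 72 h with TMM and was not called. The 72 h value corresponds to 2.42, 2.12, 2.48 and 2.65 CPM with HHQ at 100 ng/ml, against 2.95, 2.23, 2.85 and 3.18 CPM with vehicle. With library totals alone the sign at 72 h turned (0.89, adjusted p = 0.0606), and at 24 h VPS4 was called higher (1.00, adjusted p = 0.0401), with overlapping groups at both times.

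The responses at 24 and 72 h to HHQ at 100 ng/ml come from separate libraries. Of the 27 genes 10 were called at both times (37%), beside 28.9% of all genes, and all 10 in the same direction, as were 97.6% of the genes called at both times; VPS16 and VPS18 were called only in the 24 h test and SNX1, VPS2A, VPS31B and Vps33-1 only in the 72 h test. Across the 27 genes the log2 fold changes of the times had a Pearson correlation of 0.90 and a Spearman correlation of 0.82, beside 0.68 and 0.73 over all genes tested; genes are not independent replicates. In the test of the difference between the times no sorting gene passed for HHQ at 100 ng/ml, beside 6.03% of all genes at the same adjusted threshold. At an unadjusted p under 0.05 the number of sorting genes was also 0, and all genes were not counted at that threshold.

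At lower doses few sorting genes were called, and their share was near that of all genes. HHQ at 1 ng/ml gave no calls in edgeR among the sorting genes, or among all genes (0%), at either time. An unadjusted p under 0.05 was reached by 2 sorting genes at 24 h (Vps45 and VPS35) and 1 at 72 h (VPS46A). All were lower than with vehicle (log2 fold changes −0.39, −0.35 and −0.48). The share of all genes at that unadjusted threshold was not counted. DESeq2 also called none of the 27. HHQ at 10 ng/ml raised 3 of the 27 genes (11.1%) at 24 h and lowered none, beside 11.8% of all genes (7.39% higher). VPS46A had 19.4, 27.2, 17.8 and 20.1 CPM with HHQ at 10 ng/ml, against 6.97, 5.64, 8.80 and 8.02 CPM with vehicle, a 2.86-fold difference (log2 fold change 1.52 ± 0.19, adjusted p = 9.48e-07). Vps45 had 46.1, 56.9, 52.7 and 41.2 CPM, against 25, 26, 28.1 and 23.2 CPM with vehicle (log2 fold change 0.94 ± 0.14, adjusted p = 1.44e-05). For both genes every library with HHQ at 10 ng/ml was above every vehicle library and within or near the range of the 100 ng/ml libraries. VPS26 had 28.3, 32, 32.4 and 28.4 CPM, against 20.6, 21.1, 25.3 and 19.2 CPM with vehicle (log2 fold change 0.49 ± 0.15, adjusted p = 0.0275), a call lost in 5 of 8 fits without 1 library and with library totals alone (adjusted p = 0.0693).

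At 72 h HHQ at 10 ng/ml gave no call among the 27 genes, beside 0.947% of all genes, and DESeq2 also called none. The 2 sorting genes Vps45 and VPS60 had an unadjusted p under 0.05, a threshold at which all genes were not counted. VPS46A then had 10.9, 11.1, 8.94 and 8.38 CPM with HHQ at 10 ng/ml and 7.21, 8.30, 8.45 and 8.09 CPM with vehicle. Its response at 72 h was smaller than at 24 h by a test of the difference (−1.22 ± 0.27 on the log2 scale, adjusted p = 0.0116), the single sorting gene to pass it, beside 1.44% of all genes (1.23% lower). Without replicate 2 of the 10 ng/ml group at 24 h the adjusted p was 0.05002, and with library totals alone it was 0.0982. For Vps45 the same difference was −0.58 ± 0.20 and did not pass (adjusted p = 0.195).

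Set directly against HHQ at 10 ng/ml, the 100 ng/ml cultures differed in 5 sorting genes at 24 h, beside 18.7% of all genes (9.5% higher and 9.18% lower). VPS54, VPS35 and VPS26 were higher (log2 fold changes 0.68, 0.59 and 0.52) and VPS60 and VPS31A lower (−1.09 and −1.10), with adjusted p between 0.00370 and 0.0396. Replicates of the same number deviated together in these 2 groups, and a fit with the replicate number as a block called 9 sorting genes (beside 34.2% of all genes), the 5 and also IST1, VPS24, VPS2B and VPS31C. VPS60 and VPS31A lost their calls without replicate 4 of the 10 ng/ml group, without replicate 1, 2 or 3 of the 100 ng/ml group, and with library totals alone, which gave 7 genes higher and 0 lower, beside 24.3% of all genes called. At 72 h 14 genes differed, 8 higher and 6 lower, beside 39.5% of all genes (19.3% higher and 20.2% lower). The log2 fold changes of 100 over 10 ng/ml were then 1.39 for VPS29, 0.92 for Vps45, 0.81 for VPS26, −1.61 for VPS31A and −1.77 for VPS60. Library totals alone gave 18 higher and 2 lower, beside 53.6% of all genes called, and VPS2A, at −0.95 with TMM, had a log2 fold change of 0.07. The comparisons with vehicle and with 10 ng/ml share the 100 ng/ml libraries.

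Few sorting genes were called in the comparisons that involved no HHQ. In that with the parent cultures, which were used for inoculation, DMSO, transfer and time in culture cannot be told apart. Vehicle cultures at 24 h differed from the parent cultures in 2 genes, both lower, beside 18.9% of all genes (9.12% lower). VPS46A had 6.97, 5.64, 8.80 and 8.02 CPM with vehicle and 14.6, 11.5, 11.1 and 9.79 CPM in the parent cultures (log2 fold change −0.67 ± 0.19, adjusted p = 0.0108). VPS26 had 20.6, 21.1, 25.3 and 19.2 CPM with vehicle and 32.8, 30.9, 29.7 and 27.5 CPM in the parent cultures (log2 fold change −0.49 ± 0.15, adjusted p = 0.0178). The groups did not overlap, but VPS46A lost its call without parent replicate 1 (adjusted p = 0.0612), and VPS26 lost its call without that library or without vehicle replicate 4 (adjusted p up to 0.0623). Vehicle cultures at 72 h gave no call in edgeR against those at 24 h (7.11% of all genes). An unadjusted p under 0.05 was reached by 5 sorting genes, and DESeq2 called 2. No share of all genes is given beside those counts.

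Genes that act beside the sorting machinery were taken from a list of Rab GTPases, adaptors, SNAREs, VPS34 kinases and autophagy names, of which 27 were found and 21 tested. With HHQ at 100 ng/ml 10 rose and 5 fell at 24 h, and 8 rose and 7 fell at 72 h, or 71.4% at each time beside 41.1% and 46.2% of all genes. The list was chosen with earlier results of these data known, so no conclusion about such genes is drawn from that share. Library totals gave 11 higher and 0 lower, and 13 higher and 1 lower, beside 50.4% and 60.8% of all genes in either direction. The median of all genes also rose with that scaling. Rab5a, named for the GTPase of early endosomes, had 24.0, 30.0, 27 and 23.8 CPM with HHQ at 100 ng/ml at 24 h, against 10.0, 8.12, 10.5 and 7.81 CPM with vehicle (log2 fold change 1.52 ± 0.16, adjusted p = 1.19e-08), and it was also higher at 72 h (1.16 ± 0.16, adjusted p = 7.92e-07). Other genes named for Rab5 went the other way with TMM: Rab5b-1 had log2 fold changes of −1.04 ± 0.35 at 24 h (adjusted p = 0.0178) and −1.36 ± 0.35 at 72 h (adjusted p = 0.00233), and Rab5b-2 had −0.997 ± 0.36 (adjusted p = 0.0248) and −1.21 ± 0.36 (adjusted p = 0.00657). Neither was called with library totals alone, while Rab5a had 2.31 and 2.23. VPS34-1, named for the kinase that makes the endosomal lipid phosphatidylinositol 3-phosphate, had 3.23, 3.00, 4.26 and 3.78 CPM at 24 h, against 0.434, 0.211, 0.666 and 0.475 CPM with vehicle (log2 fold change 2.94 ± 0.35, adjusted p = 9.98e-08). At 72 h VPS34-1 had 4.36, 3.55, 6.37 and 3.94 CPM, against 1.00, 0.613, 0.916 and 0.578 CPM with vehicle. With library totals alone its log2 fold changes were 3.77 at 24 h and 3.71 at 72 h. AP12BB, by its name an adaptor subunit, had log2 fold changes of 1.11 ± 0.21 and 1.27 ± 0.21 at 24 and 72 h (adjusted p = 8.86e-05 and 1.40e-05), and VPS34-2 had 0.91 ± 0.16 at 24 h (adjusted p = 4.31e-05). VAMP7-1, named for a SNARE of late endosomes, was lower at 72 h (log2 fold change −1.27 ± 0.21, adjusted p = 1.04e-05), and with library totals alone it was not called (−0.19, adjusted p = 0.236). VAMP7-6 was higher at 72 h (0.92 ± 0.20, adjusted p = 0.000340, and 2.02 with library totals alone). At 24 h VAMP7-6 had 6.97 to 10.4 CPM with HHQ at 100 ng/ml, against 7.54 to 10.3 CPM with vehicle (0.84 with library totals alone).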

How the data were processed

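The authors deposited unnormalized estimated counts for each gene. Read trimming with Trimmomatic 0.38 and quantification with Salmon 0.12.0 are credited to the submitters' processing notes, and the labels' protocols give a stranded mRNA library kit. The sources used here give neither the reference transcripts nor the genome build, and no sequence or coordinate is printed. Of the values deposited by the authors 45.8% were not whole, so the estimated counts were rounded. Near-identical copies can share reads that are divided between them.

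Genes were filtered with filterByExpr and scaled with TMM factors in edgeR 4.0.16 (R 4.3.3). A single model of the 36 libraries, with 1 coefficient for each group, gave two-sided quasi-likelihood F tests with Benjamini-Hochberg adjustment over 26494 genes in each of 12 comparisons; the SE is the log2 fold change divided by the square root of F. Members, roles and the list of partners were chosen with earlier results of these data known. Values per library are given for genes with an adjusted p under 0.05, no overlap between 4 and 4 libraries and a mean of at least 1 CPM. Members outside that rule, and the partners Rab5b-1, Rab5b-2 and VAMP7-6, were described after their values were seen. Roles follow yeast and animal namesakes. All 27 members matched a symbol in the RefSeq gene table. The fit was tested on simulated data in which equal numbers of genes were raised and lowered in a single group. That test does not bear on TMM factors that differ with treatment, as they do here. Alternatives were library totals alone, DESeq2 1.42.0, no filter, only the groups compared, a replicate block, leaving out each library, leaving out replicate 4 at 24 h, and pairs of replicates at 72 h.

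Replicate numbers were taken to pair the libraries where every same-numbered pair's deviations from the group means correlated over 0.1. This held for 10 ng/ml against vehicle at 24 h (0.17 to 0.50) and 72 h (0.20 to 0.44), 1 ng/ml at 72 h (0.28 to 0.45), and 100 against 10 ng/ml at 24 h (0.12 to 0.42) and 72 h (0.13 to 0.45).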

Additional observations from a re-analysis of the deposited data

Results flagged for a closer look

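In 13 of 144 sets of 4 replicates (the 15 genes named by rule and the summed share, in each group) 1 library stood far from the other 3 by Dixon's ratio at its 95% critical value; chance alone picks out about 1 in 20. Values are TMM-normalized CPM.

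Among the parent cultures replicate 1 had 212 for IST1 (others 133 to 145), 94.5 for SNX1 (48.7 to 51.6) and 243 for VPS2A (117 to 129). In the 10 ng/ml group at 24 h replicate 4 had 55.2 for SNX1 (31.3 to 33.9), 151 for VPS2A (96.0 to 103), 202 for VPS31A (88.5 to 102) and 60.3 for VPS31B (35.1 to 39.3), and replicate 1 had 1.34 for VPS16 (1.98 to 2.08). VPS31A had 262 in replicate 4 of the vehicle group at 24 h (109 to 120). VPS35 had 8.50 in replicate 4 of the 1 ng/ml group at 24 h (14.5 to 15.6). At 72 h VPS26 had 25.1 in replicate 2 of the 1 ng/ml group (18.1 to 18.7) and 25.7 in replicate 2 of the vehicle group (18.1 to 18.8), and VPS29 had 0.795 in replicate 4 of the vehicle group (1.42 to 1.45).

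The response of VPS46A to 10 ng/ml differed between the times: the test of the response at 72 h against that at 24 h gave −1.22 on the log2 scale (adjusted p = 0.0116).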

How the results depend on the processing

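Of the log2 fold changes called, 2 changed sign, both with library totals alone: VPS16 with HHQ at 100 ng/ml at 24 h (0.21) and VPS2A at 100 against 10 ng/ml at 72 h (0.071). Of the others with library totals, 36 kept their call and 13 lost it, while with DESeq2 and with the replicate block all 51 kept theirs. With only the groups compared 41 were kept and 10 lost, and with no filter 49 and 2. In replicates 1 and 2 only at 72 h 21 were kept and 8 lost, and in replicates 3 and 4 only 18 and 11. Without replicate 4 at 24 h 18 were kept and 5 lost. Over the fits that left out 1 library, calls were kept 352 times and lost 64 times. The other causes were not tested.

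The number of sorting genes called moved by over 1.5 times as follows. Except where given above, no share of all genes stands beside these numbers, so they are not set against a background. With HHQ at 100 ng/ml at 72 h (14) it was 9 in replicates 1 and 2 only. For 100 against 10 ng/ml at 24 h (5) it was 9 with the replicate block, 10 with only the groups compared and 3 without replicate 4, and at 72 h (14) it was 9 with only the groups compared and 7 in replicates 3 and 4 only. For vehicle at 24 h against parent (2) it was 1 with library totals, 1 with only the groups compared and 5 with DESeq2. For vehicle at 72 h against 24 h (0) it was 2 with library totals, 1 with no filter, 4 with the replicate block, 1 without replicate 4 at 24 h, 4 in replicates 1 and 2 only, 1 in replicates 3 and 4 only and 2 with DESeq2. For the difference of the 10 ng/ml responses (1) it was 0 with library totals and 0 in replicates 1 and 2 only, and for that of the 100 ng/ml responses (0) it was 1 with only the groups compared.

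With 1 library left out, the numbers ran from 2 to 3 for 10 ng/ml at 24 h, 10 to 12 and 12 to 15 for 100 ng/ml at 24 and 72 h, 2 to 5 and 10 to 14 for 100 against 10 ng/ml at 24 and 72 h, 0 to 3 for vehicle against parent, 0 to 1 for vehicle at 72 h against 24 h and 0 to 1 for the difference of the 10 ng/ml responses. In the comparisons where replicate numbers did not pair the libraries, the block gave 15 and 17 in place of 12 and 14 for 100 ng/ml at 24 and 72 h. Shares of all genes called in these fits are not given. Genes such as VPS39, VPS41 and VPS29 had few counts (1082, 961 and 1462 over 36 libraries), which widens the error of their fold changes.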

Other observations

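VTA1A, named for the cofactor Vta1 (LIP5) with which the VPS60 proteins of yeast and animals act on VPS4, was looked up after the values of VPS60 were seen and is not a sorting gene by the naming rule. It had 33.5, 33.4, 32.9 and 33.5 TMM-normalized CPM with HHQ at 100 ng/ml at 24 h, against 24.3, 22.3, 24.1 and 24.0 CPM with vehicle (edgeR log2 fold change 0.49 ± 0.14, adjusted p = 0.00723). At 72 h it had 31, 27.5, 29.7 and 32.3 CPM, against 15, 18.9, 23.3 and 22.7 CPM with vehicle (0.59 ± 0.14, adjusted p = 0.00137). The groups were apart at both times, and the direction was opposite to that of VPS60.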
